A study of Homo sapiens with 8 samples.

Results

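The 41 genes described here encode proteins that copy DNA, supply its building blocks and repair it. They were taken by name from a list of MCM, polymerase, replication factor C, Fanconi, homologous recombination and checkpoint genes, and all 41 were found among the 15902 genes of the deposited tables, with 710 of the 142224 listed introns. The cells were SUM159, an established triple-negative breast cancer line of mesenchymal type. For 12 h they received either the spliceosome inhibitor H3B-8800 or its vehicle DMSO, in biological duplicate. RNA was sequenced either after immunoprecipitation with J2, an antibody that binds double-stranded RNA, or without it, as input. This gave 4 groups of 2 libraries each: J2 RNA with H3B-8800, J2 RNA with DMSO, input RNA with H3B-8800 and input RNA with DMSO. All 8 libraries came from 1 cell line at 1 time, so the values describe that line alone. A pair of measures was taken per gene: intronic reads, which lie inside an intron, and spliced reads, which join its flanking exons. Levels are in RPM, reads per 1000000 of the 47000000 to 57000000 reads behind each library. The intronic percentage is the share of intronic reads in the sum of intronic and spliced reads.

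DNA replication starts at origins that are loaded with the MCM helicase by CDC6 and CDT1 and fired with CDC45 and GINS. DNA polymerases then copy the strands on the PCNA clamp, which replication factor C loads, while RPA coats single-stranded DNA and FEN1 and LIG1 join Okazaki fragments. ATR and ATM signal stalled or broken DNA through CHEK1 and CHEK2, and BRCA1, PALB2, RAD51C and the Fanconi proteins repair it by recombination. Most of these genes carry many introns, so their messages depend on the spliceosome, and many are transcribed under E2F factors as cells enter S phase. In bulk RNA, fewer cells in S phase and less RNA per cell cannot be told apart.

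The labels matched the mesenchymal type: the 8 mesenchymal markers were all detected, with a summed level of 838 to 1077 spliced RPM, whereas ESR1 was at 0 in every group and the 3 immune markers listed summed to at most 0.412 RPM. The epithelial and luminal list summed to 167 to 265 RPM, and it was lower with H3B-8800 (167 to 189 RPM) than with DMSO (228 to 265 RPM). The fibroblast list summed to 941 to 1490 RPM, and LUM was at 0 in 3 of the 4 groups. The part of these lists in the results was not tested. The 2 libraries of each group differed by more than sampling noise. Their chi-square per degree of freedom over genes was 16.4 for J2 RNA with H3B-8800, against 4.48 for J2 RNA with DMSO, 4.30 for input RNA with H3B-8800 and 2.96 for input RNA with DMSO. The pair of J2 libraries with H3B-8800 therefore stood furthest apart, and several genes below, such as ATR, POLA1 and XRCC5, had more spliced reads in its second library. Over all listed introns, intronic reads made up 10.3% to 13.0% of reads with H3B-8800, against 3.63% to 3.98% with DMSO.

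Of the 41 genes, 38 passed a filter of 1 RPM on average over the 8 libraries and were tested among 8248 genes. The 3 below it were BRCA2, FANCD2 and MSH6. BRCA2, which acts in homologous recombination, had 0.100 and 0.604 spliced RPM in J2 RNA with H3B-8800, against 0.0189 and 0.0351 with DMSO. MSH6, a mismatch repair protein, had 0.480 and 0.906 spliced RPM in J2 RNA with H3B-8800, against 0.0755 and 0.0526 with DMSO. FANCD2, which marks stalled forks, ranged from 0.106 to 1.52 spliced RPM over the 8 libraries, and both extremes were input libraries with H3B-8800. Pseudogenes named after a gene are annotated for CHEK2, FANCD2, FEN1, PARP1, PCNA, RFC3, RFC5, RPA2, RRM2 and XRCC6, 10 genes whose reads could be split between copies and whose values are uncertain for that reason. The tables list 1 intron each for FEN1 and RAD51C.

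Intronic reads of many replication genes were higher with H3B-8800 in input RNA. Of the 38 genes, 20 rose and 0 fell in intronic reads, and over all tested genes 51.4% rose and 4.07% fell (edgeR quasi-likelihood test, Benjamini-Hochberg adjusted p under 0.05). The median log2 fold change was 1.70 for the 38 genes and 1.26 for all tested genes. Relative to spliced reads of the same gene, 24 rose and 0 fell (limma on the log2 ratio of intronic + 1 to spliced + 1), and over all tested genes 59.4% rose and 2.11% fell. No gene fell at an unadjusted p under 0.05 in either measure, while DESeq2, which centres the intronic reads of all genes, gave 2 that fell and the count model without a pseudocount 0 in the ratio. Of these calls, 6 of the 20 and 11 of the 24 held under every alternative run, and those that held for the ratio were CDC45, MCM10, MCM4, MCM5, MCM7, PCNA, POLD1, POLE, RFC1, RFC2 and RRM2. The ratio also rises where spliced reads fall. ATR, CDC45, CDC6, FANCI, RFC1, RFC5 and RRM1 rose in the ratio and were not called in intronic reads. Summed over the input libraries, CDC45 had 24 intronic reads with H3B-8800, against 18 with DMSO. CDC6 had 11 against 14 and FANCI 19 against 16, and the spliced reads of these genes fell.

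In J2 RNA the same genes gave 21 that rose and 0 that fell in intronic reads, and over all tested genes 59.2% rose and 3.79% fell. The median log2 fold change was 1.72 for the 38 genes and 1.75 for all tested genes, and it was also 1.72 with RFC4 and XRCC5, the 2 genes with intronic reads with the drug and 0 with DMSO, set to their lower bound. For the ratio 18 rose and 0 fell, and over all tested genes 58.4% rose and 4.97% fell. No gene fell at an unadjusted p under 0.05 in either measure (edgeR and limma), and DESeq2 gave 2 that fell in intronic reads. Scaled so that the intronic reads of all genes were centred, the all-gene median moved to -0.02 in input RNA and 0.05 in J2 RNA, and 8 and 10 of the 38 genes rose beyond it, against 23.3% and 25.9% of all tested genes.

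**Figure D1:**
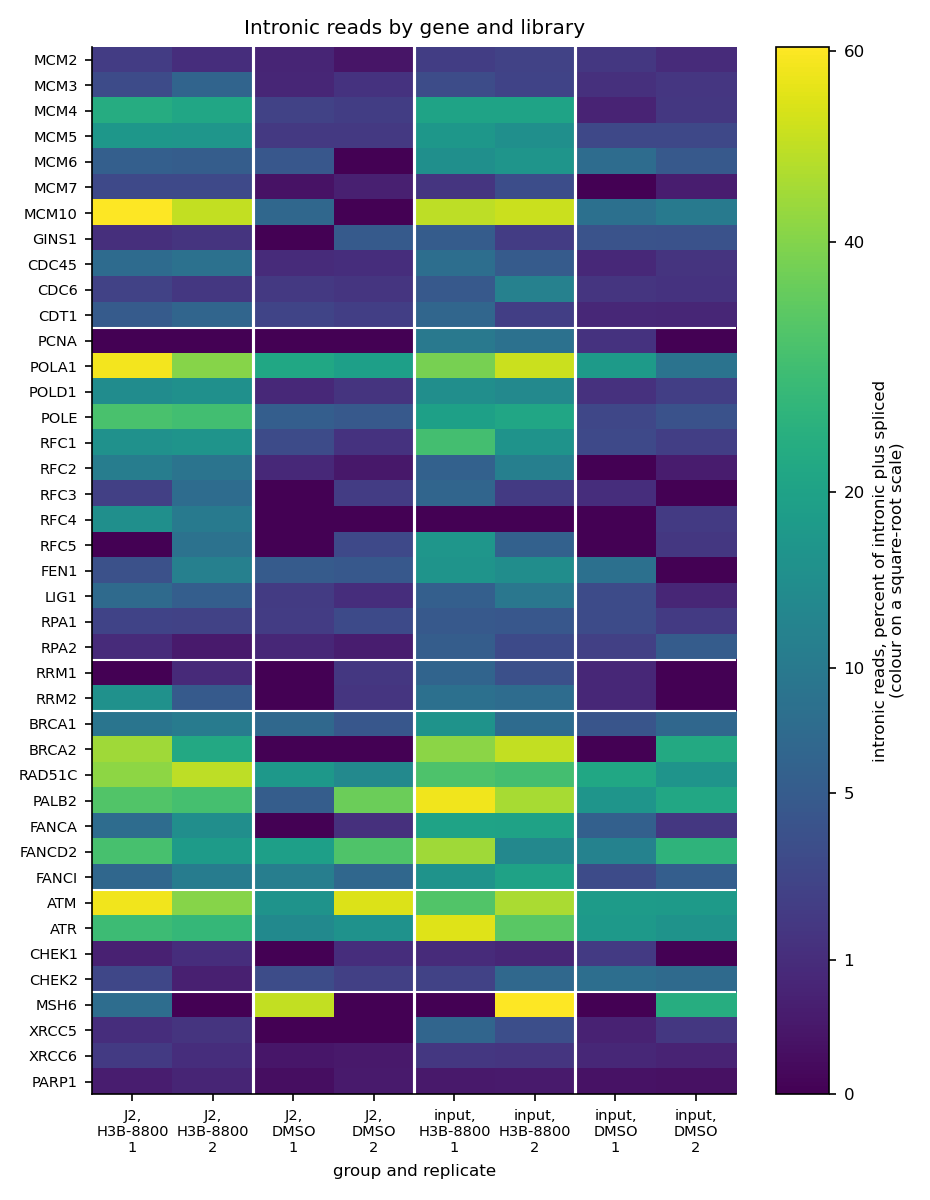
Intronic reads as a percentage of intronic plus spliced reads (colour, square-root scale) for 41 genes (rows, by role, separated by white lines) in 8 libraries (columns, 2 per group). MCM10 stands at 48.8% to 60.5% in the 4 libraries with H3B-8800, whereas PCNA is at 0 in all 4 J2 libraries; BRCA2 and MSH6 rest on few reads.

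Among the licensing and helicase genes, 7 of 11 rose in the ratio in input RNA and 6 of 11 in J2 RNA, against 59.4% and 58.4% of all tested genes. MCM10, which helps to activate the helicase, had 60.5% and 49.7% intronic reads in J2 RNA with H3B-8800, against 6.67% and 0% with DMSO. In input RNA MCM10 had 48.8% and 51.0% with H3B-8800, against 8.16% and 10.3% with DMSO. All 4 libraries with H3B-8800 lay far above all 4 with DMSO. Of the 340 intronic reads of MCM10 with the drug, 164 (48.2%) lay in intron 10, across which no library had a spliced read. The log2 ratio of MCM10 rose by 4.59 ± 0.65 in J2 RNA and by 3.02 ± 0.65 in input RNA (SE, adjusted p = 6.1e-05 and 0.0016), and the J2 value was 5.61 without the first DMSO J2 library and 3.57 without the second. MCM10 was also among the genes whose spliced reads rose, so both kinds of reads were higher with the drug.

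MCM4 and MCM5 are subunits of the MCM ring. MCM4 had 23.2% and 21.2% intronic reads in J2 RNA with H3B-8800, against 2.31% and 1.98% with DMSO, and 20.4% and 20.2% in input RNA with H3B-8800, against 0.613% and 1.60% with DMSO. The intronic reads of MCM4 were 14.5 times as many with H3B-8800 in J2 RNA (95% exact counting interval 5.93 to 46.2) and 17.5 times as many in input RNA (6.51 to 65.9). MCM5 had 16.9% and 16.8% in J2 RNA with H3B-8800, against 1.67% and 1.67% with DMSO, and 16.8% and 14.9% in input RNA with H3B-8800, against 2.87% and 2.82% with DMSO. The groups did not overlap for either gene. MCM7, another ring subunit, had 2.93% and 2.99% in J2 RNA with H3B-8800, against 0.134% and 0.450% with DMSO, and 1.45% and 3.35% in input RNA with H3B-8800, against 0% and 0.400% with DMSO. Its log2 ratio rose by 3.30 ± 0.85 in J2 RNA and by 3.44 ± 0.85 in input RNA (SE, adjusted p = 0.0049 and 0.0038), and its input value was 2.27 without the first DMSO input library and 4.62 without the second, and its J2 value 2.62 and 3.98 without the first and second DMSO J2 library. MCM2 and MCM6 of the same ring, and GINS1, did not pass the test for the ratio in either kind of RNA.

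Among the synthesis genes, 9 of 13 rose in the ratio in input RNA and 7 of 13 in J2 RNA, against 59.4% and 58.4% of all tested genes. RFC2, a subunit of the clamp loader, had 10.9% and 8.96% intronic reads in J2 RNA with H3B-8800, against 0.803% and 0.244% with DMSO. In input RNA RFC2 had 5.84% and 11.2% with H3B-8800, against 0% and 0.336% with DMSO. The 4 values with the drug were all higher than the 4 with vehicle, and the log2 ratio rose by 4.26 ± 0.72 in J2 RNA and by 4.90 ± 0.72 in input RNA (SE, adjusted p = 0.00027 and 9.3e-05). Without the first or second DMSO library of the same kind of RNA these values were 4.94 and 3.57 in J2 RNA and 4.18 and 5.61 in input RNA. The intronic reads of RFC2 rose 35.4-fold in input RNA from a base of 2 reads, with a 95% counting interval of 9.44 to 298. POLD1, the catalytic subunit of polymerase delta, had 14.3% and 15.3% in J2 RNA with H3B-8800, against 0.800% and 1.34% with DMSO. In input RNA POLD1 had 14.7% and 13.4% with H3B-8800, against 1.21% and 2.11% with DMSO. Its log2 ratio rose by 3.97 ± 0.37 and 3.28 ± 0.37 (SE, adjusted p = 1.5e-06 and 9.2e-06).

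POLE, the leading-strand polymerase, had 30.8% and 29.5% in J2 RNA with H3B-8800, against 5.43% and 4.70% with DMSO, and 19.5% and 21.2% in input RNA with H3B-8800, against 2.77% and 3.82% with DMSO. POLA1, which primes synthesis, had 58.1% and 40.6% in J2 RNA with H3B-8800, against 21.4% and 19.4% with DMSO, and 38.1% and 51.3% in input RNA with H3B-8800, against 17.9% and 8.74% with DMSO. Of the 217 intronic reads of POLA1 with the drug, 94 lay in an intron that holds the small Cajal body RNA gene SCARNA23, and this intron had 0 intronic reads with DMSO. Without introns that overlap another gene, the adjusted p of the POLA1 ratio was 0.374 in input RNA, and without the first drug J2 library its J2 call was lost (log2 ratio 1.27, adjusted p = 0.115).

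The intronic reads of RFC4 came mostly from J2 RNA and those of PCNA from input RNA. RFC4, a clamp loader subunit, had 8 and 8 intronic reads in J2 RNA with H3B-8800, against 0 and 0 with DMSO, and 0 and 0 in input RNA with H3B-8800, against 0 and 2 with DMSO. This was at least 5.70-fold higher in J2 RNA with the drug, taking 3 counts over the group as the limit that 0 reads allow. The clamp gene PCNA had 0 and 0 intronic reads in J2 RNA with H3B-8800, against 0 and 0 with DMSO, and 12 and 11 in input RNA with H3B-8800, against 2 and 0 with DMSO. Whether the drug effect on the ratio differed between J2 and input RNA was tested, and it missed the threshold for both genes (adjusted p = 0.18 for RFC4 and 0.063 for PCNA). The intronic call of RFC4 was lost without either DMSO J2 library (adjusted p = 0.056 and 0.061), and that of PCNA in input RNA without either drug input library or the second DMSO one (adjusted p = 0.121, 0.093 and 0.190).

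Both subunits of ribonucleotide reductase, the enzyme that makes deoxyribonucleotides, rose in the ratio in input RNA, and the call of RRM1 was lost without the first drug or the second DMSO input library (adjusted p = 0.066 and 0.084). RRM2 had 15.5% and 4.88% intronic reads in J2 RNA with H3B-8800, against 0% and 1.46% with DMSO, and 8.25% and 7.56% in input RNA with H3B-8800, against 0.763% and 0% with DMSO. All 4 drug libraries were above all 4 vehicle libraries, although the 2 J2 libraries with the drug were far apart, with 63 and 24 intronic reads. Its log2 ratio rose by 3.51 ± 0.91 in J2 RNA and by 3.80 ± 0.91 in input RNA (SE, adjusted p = 0.0054 and 0.0033), and the J2 call was lost without the first drug J2 library or the first DMSO one (adjusted p = 0.068 and 0.051). Its J2 value was 4.41 and 4.67 without the second drug or second DMSO J2 library, and its input value 4.66 and 2.93 without the first or second DMSO input library. RRM1 had 0% and 0.844% in J2 RNA with H3B-8800, against 0% and 1.56% with DMSO, and 6.30% and 3.57% in input RNA with H3B-8800, against 0.730% and 0% with DMSO. The drug effect on its ratio was -3.99 ± 1.05 in J2 RNA relative to input RNA (SE, adjusted p = 0.038). This call was lost without any 1 of the 8 libraries (adjusted p = 0.056 to 0.117), and RRM1 had at most 8 intronic reads in a library.

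Of the recombination and Fanconi genes tested, 4 of 5 rose in the ratio in input RNA (FANCA, FANCI, PALB2 and RAD51C) and 2 of 5 in J2 RNA (FANCA and RAD51C). Over all tested genes 59.4% rose in input RNA and 58.4% in J2 RNA. Both J2 calls and 0 of the 4 input calls held under every alternative. That of PALB2 was lost without any 1 of the input libraries (adjusted p = 0.064 to 0.173) and without the variance trend (0.079), and that of FANCI without the second drug or the first DMSO input library (0.056 and 0.053). FANCA, a core subunit of the Fanconi ubiquitin ligase, had 7.62% and 14.8% intronic reads in J2 RNA with H3B-8800, against 0% and 1.16% with DMSO. In input RNA FANCA had 20.5% and 20.2% with H3B-8800, against 5.67% and 1.63% with DMSO. The tables list 9 introns of this gene, so the values cover only part of it. The input call of the FANCA ratio was lost without the second DMSO input library (log2 ratio 1.96, adjusted p = 0.063). RAD51C, which also acts in homologous recombination, had 41.5% and 49.0% in J2 RNA with H3B-8800, against 17.2% and 13.3% with DMSO, and 31.5% and 29.7% in input RNA with H3B-8800, against 21.4% and 16.1% with DMSO, all in its 1 listed intron. Its log2 ratio rose by 2.16 ± 0.35 in J2 RNA (SE, adjusted p = 0.00016) and by 0.92 ± 0.35 in input RNA (SE, adjusted p = 0.036), and the input call was lost without either drug input library or the second DMSO one (adjusted p = 0.140, 0.095 and 0.185). BRCA1 did not pass the test for the ratio in either kind of RNA, with 9.09% and 10.5% in J2 RNA with H3B-8800, against 6.98% and 4.40% with DMSO.

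Few checkpoint kinases passed the test for the ratio. In input RNA 1 of 4 rose in the ratio, ATR, the kinase of stalled forks, and in J2 RNA 0 of 4 rose (0 also at an unadjusted p under 0.05 by limma). Over all tested genes 59.4% rose in input RNA and 58.4% in J2 RNA. ATR had 28.4% and 26.7% intronic reads in J2 RNA with H3B-8800, against 13.6% and 15.8% with DMSO, and 54.7% and 33.3% in input RNA with H3B-8800, against 17.5% and 15.8% with DMSO. The groups did not overlap in either kind of RNA. Its input call was lost without the first drug input library (log2 ratio 1.29, adjusted p = 0.117). CHEK1, the effector kinase of ATR, kept between 0 and 4 intronic reads in every library. In intronic reads alone 0 of 4 kinases rose in input RNA and 2 of 4 in J2 RNA, against 51.4% and 59.2% of all tested genes. The 2 were ATM, with 53 reads in J2 RNA with H3B-8800, against 17 with DMSO, and ATR, with 62 against 9. Both calls were lost when the intronic reads of all genes were centred.

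The end-joining genes XRCC5 and XRCC6 encode the Ku proteins that bind broken ends. XRCC5 had 6 and 15 intronic reads in J2 RNA with H3B-8800, against 0 and 0 with DMSO, which is at least 7.48-fold higher by the same limit of 3 counts. In input RNA XRCC5 had 52 and 33 with H3B-8800, against 4 and 13 with DMSO. XRCC6 had 39 and 29 in J2 RNA with H3B-8800, against 4 and 5 with DMSO, and 44 and 49 in input RNA with H3B-8800, against 8 and 7 with DMSO. By DESeq2 the input intronic calls of XRCC5 and XRCC6 were lost (adjusted p = 0.34 and 0.098). In the ratio 1 of 3 genes of this role rose in input RNA, XRCC5, and 2 of 3 in J2 RNA, XRCC5 and XRCC6. Over all tested genes these shares were 59.4% and 58.4%. Only the J2 ratio call of XRCC6 held under every alternative. That of XRCC5 was lost with a pseudocount of 5 (log2 ratio 0.27, limma, adjusted p = 0.61). The intronic reads of PARP1, which senses nicks, rose in input RNA (log2 fold change 1.88 ± 0.79, SE, adjusted p = 0.034), but no single library could be left out of that pair of groups without losing the call (adjusted p = 0.068 to 0.142).

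Intronic reads of the listed genes were spread unevenly over their introns. Of the 710 introns, 298 had an intronic read in a library with H3B-8800 and 195 in a library with DMSO. For 22 genes with more than 1 listed intron and at least 50 intronic reads with the drug, the intron with most reads held a median of 47.7% of them on 5.24% of the listed intron length, and 9 genes had over 50% of their reads in 1 intron. These counts and shares were not taken over all genes, so whether the listed genes differ from others was not tested. MCM5 had 80.2% of its 869 intronic reads with the drug in the last intron, and PALB2, the partner of BRCA2, had 93.4% of 106 in its first. At single introns 219 of the 710 had a mean of at least 20 reads and were tested. In input RNA 55 of these rose and 13 fell in the ratio, and over all tested introns 43.1% rose and 3.71% fell. In J2 RNA 66 rose and 16 fell, and over all tested introns 41.7% rose and 7.75% fell.

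Many of these intron calls carried no intronic reads. Of the 55 introns that rose in input RNA, 11 had 0 intronic reads in the 4 libraries compared, and of the 13 that fell, 10 had 0, so that the ratio moved with spliced reads and the pseudocount alone. In J2 RNA this held for 21 of 66 and 12 of 16. A count model without a pseudocount, chosen after seeing the data, gave 12 introns that rose and 0 that fell in input RNA (over all tested introns 22.7% rose and 0.440% fell). In J2 RNA it gave 17 that rose and 1 that fell (over all tested introns 22.9% rose and 0.617% fell). The 1 that fell was intron 5 of RPA1, a subunit of the single-strand binding protein, with 0 and 2 intronic reads in J2 RNA with H3B-8800, against 14 and 18 with DMSO. The members' introns were thinner than most, with a median of 47.1 reads per tested intron, against 78.0 over all genes.

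The largest rises in input RNA among introns with at least 20 reads in every drug library were in 8 introns. Coordinates are on GRCh38 and introns are numbered along the matched GENCODE 29 transcript. Exons of other annotated transcripts of the same gene overlap each of the 8 except MCM4 intron 9 and MCM10 intron 10. Intronic reads there can also come from such transcripts. The last intron of MCM5, intron 16 at chr22:35423342-35424153, had 185 and 188 intronic reads in J2 RNA with H3B-8800, against 4 and 6 with DMSO, and 170 and 154 in input RNA with H3B-8800, against 5 and 15 with DMSO. Spliced reads across it were 59 and 46 in J2 RNA with H3B-8800, against 68 and 66 with DMSO. So in J2 RNA 75.8% and 80.3% of the reads at this intron were intronic with the drug, against 5.56% and 8.33% with DMSO. This share is not corrected for intron length and is not a share of unspliced transcripts. Its log2 ratio rose by 5.34 ± 0.45 in J2 RNA and by 4.51 ± 0.45 in input RNA (SE, adjusted p = 2.9e-05 and 9.0e-05). Intron 2 of the same gene, at chr22:35400606-35403206, rose less, with 12 and 8 intronic reads in J2 RNA with H3B-8800, against 5 and 2 with DMSO, and 17 and 15 in input RNA with H3B-8800, against 3 and 0 with DMSO. The input call of MCM5 intron 2 was lost without the first drug or the second DMSO input library (adjusted p = 0.056 and 0.051). MCM4 intron 9, at chr8:47966408-47967364, had 16 and 24 intronic reads in J2 RNA with H3B-8800, against 0 and 0 with DMSO, and 21 and 17 in input RNA with H3B-8800, against 0 and 2 with DMSO. Its input call was lost in the count model (adjusted p = 0.062).

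**Figure D2:**
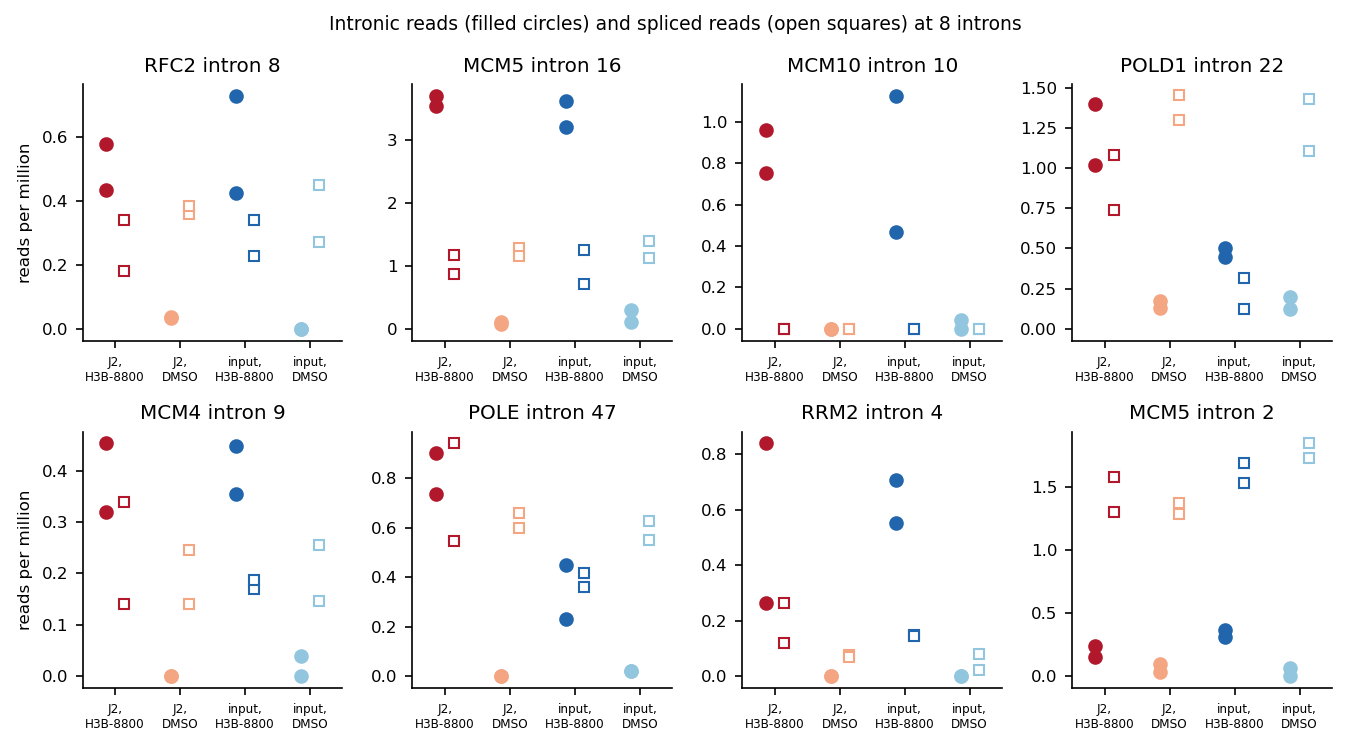
Intronic RPM (filled circles) and spliced RPM (open squares) at 8 introns, 2 libraries per group. In every panel the intronic reads of all 4 libraries with H3B-8800 lie above those of all 4 with DMSO, and MCM10 intron 10 has 0 spliced reads in all 8 libraries.

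RFC2 intron 8, at chr7:74235646-74237361, had 29 and 23 intronic reads in J2 RNA with H3B-8800, against 2 and 2 with DMSO, and 20 and 35 in input RNA with H3B-8800, against 0 and 0 with DMSO. RRM2 intron 4, at chr2:10123853-10124716, had 42 and 14 in J2 RNA with H3B-8800, against 0 and 0 with DMSO, and 26 and 34 in input RNA with H3B-8800, against 0 and 0 with DMSO. In the count model the input call of RRM2 was lost (adjusted p = 0.089). MCM10 intron 10, at chr10:13189081-13191298, had 48 and 40 intronic reads in J2 RNA with H3B-8800, against 0 and 0 with DMSO, and 22 and 54 in input RNA with H3B-8800, against 2 and 0 with DMSO. No library had a read spliced across this intron, so its ratio holds intronic reads only, and the count model gave no call (adjusted p = 1.0).

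POLD1 intron 22, at chr19:50415827-50416395, had 70 and 54 intronic reads in J2 RNA with H3B-8800, against 7 and 10 with DMSO, and 21 and 24 in input RNA with H3B-8800, against 6 and 10 with DMSO. POLE intron 47, at chr12:132624995-132625644, had 45 and 39 in J2 RNA with H3B-8800, against 0 and 0 with DMSO, and 21 and 11 in input RNA with H3B-8800, against 1 and 1 with DMSO. The next intron of each gene had few reads or none. POLE intron 48, at chr12:132624811-132624904, had 0 intronic reads in all 8 libraries, and POLD1 intron 23, at chr19:50416529-50416609, had 3 in 1 J2 library with H3B-8800 and 0 in the other 7. The ratio of POLD1 intron 23 still passed the test (log2 ratio 1.70 in input RNA, adjusted p = 0.049), with spliced reads of 19 and 13 in input RNA with H3B-8800, against 56 and 51 with DMSO. MCM5 intron 15, at chr22:35421461-35423213, had 21 and 19 intronic reads in J2 RNA with H3B-8800, against 5 and 11 with DMSO, and 24 and 21 in input RNA with H3B-8800, against 19 and 13 with DMSO. H3B-8800 acts on the protein complex that recognises the branch point upstream of the 3′ splice site, so the last 50 bases of these introns are shown, first for the 3 with the largest rises among those with sequence and then, in the same 3 genes, for the intron of smallest change among those with sequence. Capitals mark the final AG and any match to CTNAC, the core of the branch point consensus, searched on the transcribed strand only.
MCM5 intron 16: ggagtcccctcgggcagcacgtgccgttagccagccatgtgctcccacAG
POLD1 intron 22: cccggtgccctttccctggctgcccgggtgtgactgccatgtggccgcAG
POLE intron 47: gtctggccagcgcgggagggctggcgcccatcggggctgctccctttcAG
MCM5 intron 15: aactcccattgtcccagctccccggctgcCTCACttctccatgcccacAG
POLD1 intron 23: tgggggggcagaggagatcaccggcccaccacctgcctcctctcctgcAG
POLE intron 48: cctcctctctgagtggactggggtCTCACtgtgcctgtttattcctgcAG

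In the 20 bases before the AG, the 3 introns with the largest rises held 60% (MCM5), 55% (POLD1) and 70% (POLE) pyrimidines, and the introns of smallest change 80%, 85% and 75%. The median over 7422 introns with sequence was 75%, and over the 23 such introns of the listed genes 70%. CTNAC was found in 2 of the 3 introns of smallest change and in none of the 3 that rose most, in 30.1% of the 7422 windows and in 21.7% of the 23. The introns of smallest change also differ in length, with 1753 bases for MCM5 intron 15, 81 for POLD1 intron 23 and 94 for POLE intron 48, against 812, 569 and 650 for the introns that rose. These 6 windows were chosen by their change and are a description. Sequence was read from GENCODE 29 transcripts that retain the whole intron, so introns without such a transcript are not covered.

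Spliced reads changed in both directions. In input RNA 8 of the 38 genes rose and 16 fell with H3B-8800, and over all tested genes 21.9% rose and 48.2% fell. The median log2 fold change was -0.39 for the 38 genes and -0.36 for all tested genes. In J2 RNA 12 rose and 9 fell, and over all tested genes 34.5% rose and 39.5% fell. Of these calls 7 that rose and 8 that fell in input RNA, and 10 that rose and 7 that fell in J2 RNA, held under every alternative. Scaled by the median of ratios, the all-gene median was 0.04 in input RNA, and 16 of the 38 genes rose and 9 fell, against 37.3% and 34.4% of all tested genes.

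**Figure D3:**
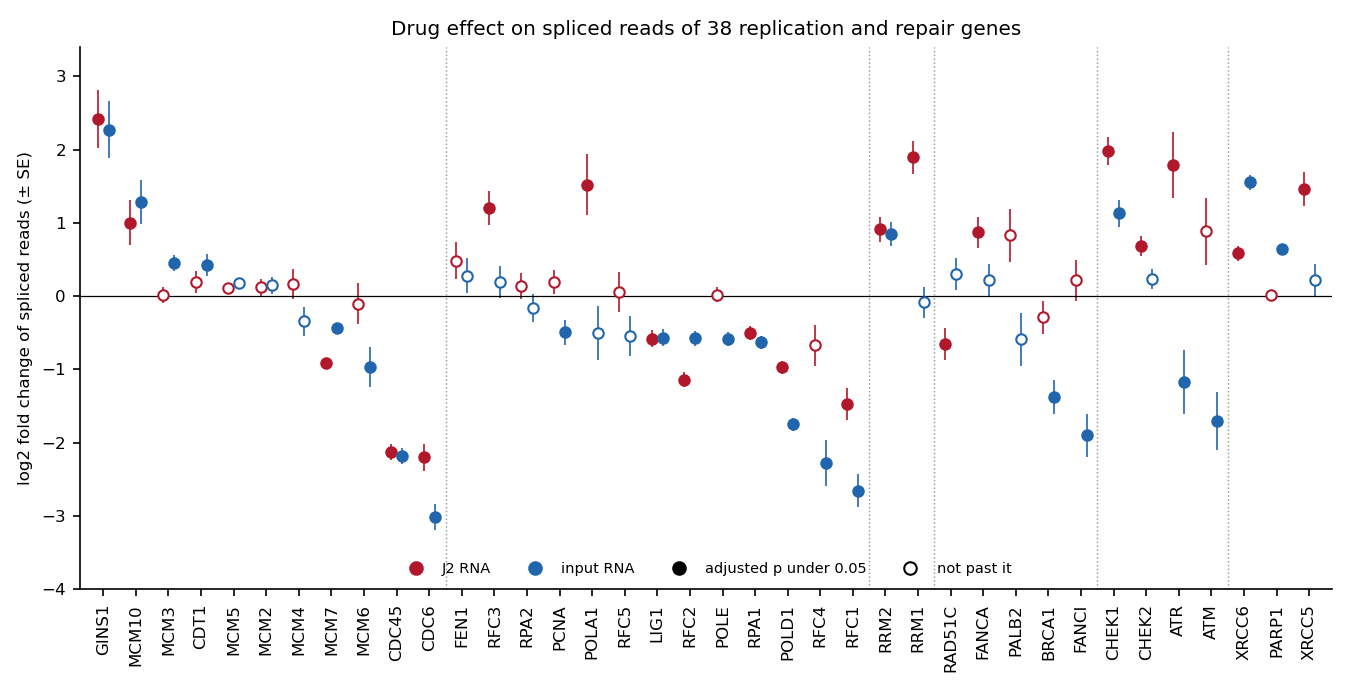
Log2 fold change of spliced reads, H3B-8800 against DMSO, in J2 RNA (red) and input RNA (blue) for 38 genes ordered by role (dotted lines) and input effect. Bars are SE and filled points passed an adjusted p of 0.05. CDC6 and CDC45 lie low and GINS1 high in both kinds of RNA, whereas ATR, ATM and RRM1 are higher in J2 RNA.

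The licensing and helicase genes split: in input RNA 4 of 11 rose (GINS1, MCM10, MCM3 and CDT1) and 4 fell (CDC6, CDC45, MCM6 and MCM7). Over all tested genes 21.9% rose and 48.2% fell. The calls of CDT1, MCM6 and MCM7 did not hold under every alternative. GINS1, a subunit of the GINS complex of the helicase, had 5.28 and 2.74 spliced RPM in J2 RNA with H3B-8800, against 0.453 and 1.04 with DMSO, and 4.34 and 5.35 in input RNA with H3B-8800, against 1.02 and 0.980 with DMSO. The groups were apart in both kinds of RNA, by a log2 fold change of 2.41 ± 0.39 in J2 RNA and 2.27 ± 0.39 in input RNA (SE, adjusted p = 0.00035 and 0.00048), and the J2 value was 3.14 without the second DMSO J2 library. CDC6, which loads the MCM ring, had 0.820 and 1.15 spliced RPM in J2 RNA with H3B-8800, against 4.38 and 4.70 with DMSO. In input RNA CDC6 had 1.30 and 1.25 with H3B-8800, against 10 and 10.5 with DMSO. It fell by 2.20 ± 0.18 in J2 RNA and by 3.01 ± 0.18 in input RNA on the log2 scale (SE, adjusted p = 3.4e-06 and 3.2e-07).

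CDC45, which travels with the helicase, had 4.56 and 4.72 spliced RPM in J2 RNA with H3B-8800, against 19.98 and 20.5 with DMSO, and 3.45 and 3.92 in input RNA with H3B-8800, against 17.6 and 15.8 with DMSO. Its fall was about equal in both, by 2.13 ± 0.11 in J2 RNA and 2.18 ± 0.11 in input RNA on the log2 scale (SE, adjusted p = 1.3e-07 and 1.1e-07), and the difference between them was 0.05 ± 0.15 (adjusted p = 0.79). MCM7 had 14.6 and 14.7 spliced RPM in J2 RNA with H3B-8800, against 28.0 and 27.2 with DMSO, and 14.4 and 15.6 in input RNA with H3B-8800, against 21.2 and 19.5 with DMSO. The input fall of 0.44 ± 0.08 on the log2 scale (adjusted p = 0.00064) became a rise of 0.17 once a trend over GC content and length was removed. The other ring subunits MCM2, MCM4 and MCM5 did not pass the test in input RNA, with log2 fold changes of 0.15, -0.34 and 0.17. With that trend removed MCM2 and MCM5 passed it as rises, of 0.79 and 0.72 (edgeR, adjusted p = 6.9e-05 and 2.9e-06).

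GINS1 and CDC6 are shown by their promoters because their spliced reads moved furthest in opposite directions. Each window runs from 250 bases before to 50 after a RefSeq start on GRCh38.p14, at chr20:25407423-25407722 (plus strand) for GINS1 and chr17:40287629-40287928 (plus strand) for CDC6. Capitals mark E2F words, which were TTTCCCGC, TTTCGCGC, TTTGCCGC and TTTGGCGC on either strand, and 2 words can overlap.
GINS1: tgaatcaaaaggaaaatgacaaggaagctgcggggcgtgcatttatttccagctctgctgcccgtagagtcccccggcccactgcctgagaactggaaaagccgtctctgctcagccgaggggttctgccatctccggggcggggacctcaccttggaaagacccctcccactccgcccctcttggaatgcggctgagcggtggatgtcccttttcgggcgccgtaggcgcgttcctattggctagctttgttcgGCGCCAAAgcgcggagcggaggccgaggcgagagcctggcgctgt
CDC6: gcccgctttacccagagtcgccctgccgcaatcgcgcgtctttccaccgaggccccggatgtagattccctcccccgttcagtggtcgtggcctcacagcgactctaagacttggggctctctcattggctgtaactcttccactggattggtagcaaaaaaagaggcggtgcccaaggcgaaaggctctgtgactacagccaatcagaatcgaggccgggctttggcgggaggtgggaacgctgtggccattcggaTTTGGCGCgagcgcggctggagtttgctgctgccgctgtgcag

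Both windows held 1 such word just after the start. Of the 36 listed genes with a promoter in the table, 16 held a word (44.4%), against 3.99% of 27305 genes with a promoter. They were CDC6, CDT1, FANCA, FANCD2, GINS1, LIG1, MCM2, MCM3, MCM6, MCM7, MSH6, PCNA, POLA1, POLE, RFC3 and XRCC6. Those that passed the test in input RNA went both ways in spliced reads: GINS1, XRCC6, MCM3 and CDT1 rose, and CDC6, MCM6, POLE, LIG1, PCNA and MCM7 fell. Of these, GINS1, XRCC6, MCM3 and CDC6 held under every alternative, and LIG1 and MCM7 changed sign with the GC and length trend removed.

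No synthesis gene rose in spliced reads in input RNA and 8 of 13 fell (0 rose at an unadjusted p under 0.05 as well by edgeR's quasi-likelihood test). Over all tested genes 21.9% rose and 48.2% fell. Of the 8 falls, 3 held under every alternative (POLD1, RFC1 and RFC4). Those of LIG1, PCNA, POLE and RFC2 were lost by median of ratios and by DESeq2, and that of RPA1 by DESeq2. With the GC and length trend removed FEN1 rose (0.63 on the log2 scale, adjusted p = 0.024). The largest falls were in RFC1 and RFC4 of the clamp loader and in POLD1. RFC1 had 1.96 and 3.72 spliced RPM in J2 RNA with H3B-8800, against 8 and 7.81 with DMSO, and 2.47 and 2.52 in input RNA with H3B-8800, against 15.5 and 15.9 with DMSO. It fell by 1.47 ± 0.22 in J2 RNA and by 2.65 ± 0.23 in input RNA on the log2 scale (SE, adjusted p = 0.00022 and 4.5e-06). RFC4 had 0.900 and 1.32 in J2 RNA with H3B-8800, against 1.49 and 2.05 with DMSO, and 0.511 and 0.417 in input RNA with H3B-8800, against 2.33 and 2.18 with DMSO. The J2 libraries of RFC4 came close to each other across treatments, and only the input fall passed the test, by 2.28 ± 0.31 on the log2 scale (SE, adjusted p = 0.00011). POLD1 had 14.6 and 12.9 in J2 RNA with H3B-8800, against 28.1 and 25.9 with DMSO, and 7.81 and 7.40 in input RNA with H3B-8800, against 25.5 and 25.5 with DMSO. Its input log2 fold change of -1.75 was -0.76 with the GC and length trend removed. RFC2 had 6.72 and 6.13 in J2 RNA with H3B-8800, against 13.98 and 14.4 with DMSO, and fell more in J2 RNA (by 1.14 ± 0.10 on the log2 scale) than in input RNA (by 0.58 ± 0.10).

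**Figure D4:**
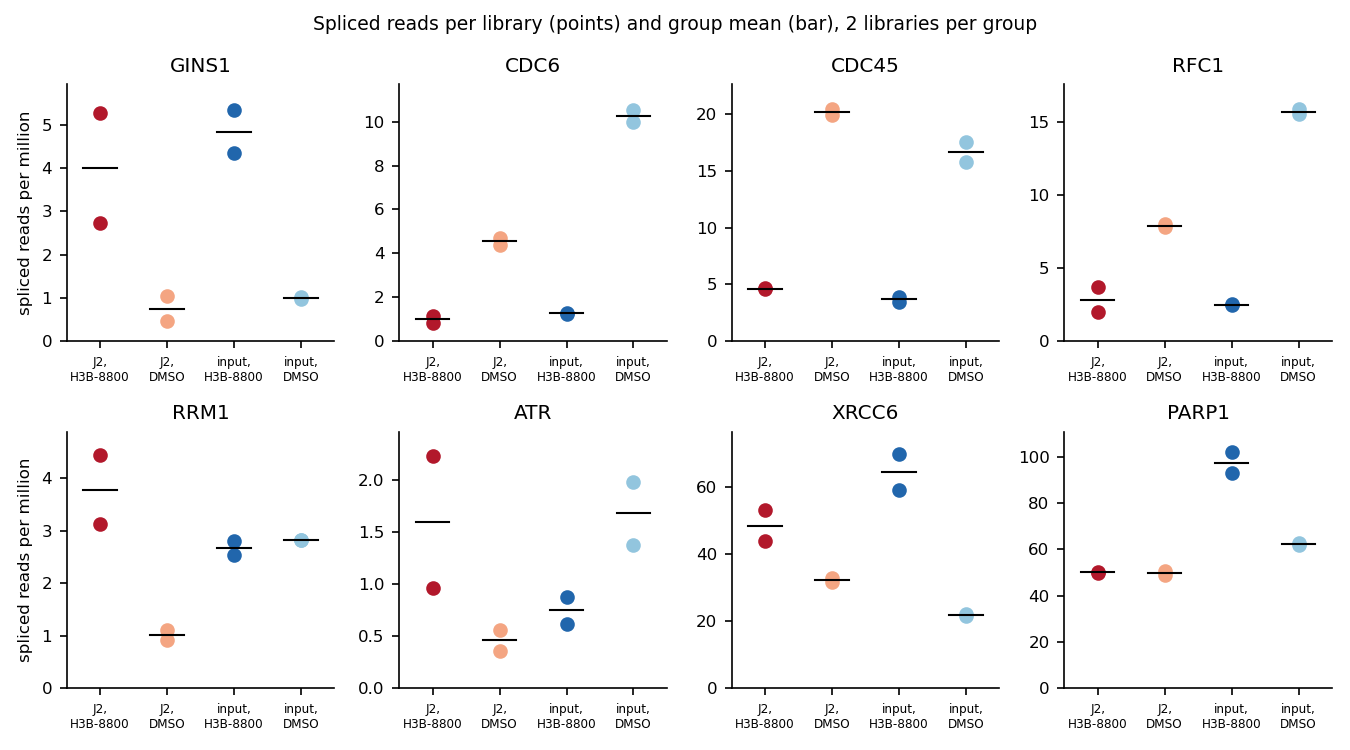
Spliced RPM of 8 genes in each library (points) with the group mean (bar), 2 libraries per group. GINS1 is higher and CDC6, CDC45 and RFC1 lower with H3B-8800 in both kinds of RNA; ATR and RRM1 are lower in J2 RNA with DMSO than in the other 3 groups.

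RRM2 rose in both kinds of RNA, with 6.86 and 8.83 spliced RPM in J2 RNA with H3B-8800, against 4.79 and 3.56 with DMSO, and 9.70 and 10.2 in input RNA with H3B-8800, against 5.42 and 5.63 with DMSO. Its log2 fold change was 0.91 ± 0.17 in J2 RNA and 0.85 ± 0.16 in input RNA (SE, adjusted p = 0.00072 and 0.0011). RRM1 passed the test in J2 RNA, where it had 3.12 and 4.43 spliced RPM with H3B-8800, against 0.925 and 1.11 with DMSO, and not in input RNA, where it had 2.53 and 2.81 with H3B-8800, against 2.83 and 2.82 with DMSO. CHEK1 had 7.74 and 7.26 in J2 RNA with H3B-8800, against 2.17 and 1.63 with DMSO, and 4.68 and 6 in input RNA with H3B-8800, against 2.29 and 2.59 with DMSO. CHEK1 therefore rose in both, by log2 fold changes of 1.98 ± 0.19 and 1.13 ± 0.19 (SE, adjusted p = 9.2e-06 and 0.00044).

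ATR and ATM fell in input RNA. ATR had 0.617 and 0.875 spliced RPM in input RNA with H3B-8800, against 1.38 and 1.98 with DMSO, and the fall of 1.17 ± 0.44 on the log2 scale (SE, adjusted p = 0.036) was lost without either drug input library or the second DMSO one (adjusted p = 0.190, 0.072 and 0.197). In J2 RNA ATR had 0.960 and 2.23 with H3B-8800, against 0.358 and 0.561 with DMSO, and its log2 fold change of 1.79 ± 0.45 (SE, adjusted p = 0.0052) was 1.05 without the second drug J2 library and 1.02 with the GC and length trend removed. ATM, the kinase of broken ends, had 0.766 and 0.438 in input RNA with H3B-8800, against 1.79 and 2.14 with DMSO, a fall of 1.71 ± 0.39 on the log2 scale (SE, adjusted p = 0.0033). MCM10 rose by 1.28 ± 0.30 in input RNA, with 1.83 and 2.12 with H3B-8800, against 0.938 and 0.686 with DMSO. In J2 RNA its log2 fold change of 1.00 was no longer called without the second drug J2 library or the first DMSO one (0.74 and 0.83) or with that trend removed (0.65), and that of POLA1 (1.52) was not called without the second drug J2 library (0.75).

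XRCC6 rose most among the repair genes in input RNA. It had 43.8 and 53.3 spliced RPM in J2 RNA with H3B-8800, against 32.8 and 31.8 with DMSO, and 59.3 and 69.8 in input RNA with H3B-8800, against 21.7 and 22.2 with DMSO. Both kinds of RNA had higher values with the drug, without overlap, and the log2 fold change was 0.59 ± 0.10 in J2 RNA and 1.55 ± 0.10 in input RNA (SE, adjusted p = 0.00053 and 8.0e-07). PARP1 had 49.7 and 50.3 in J2 RNA with H3B-8800, against 50.5 and 48.8 with DMSO, and 93.1 and 102 in input RNA with H3B-8800, against 61.8 and 62.9 with DMSO. It thus rose in input RNA by 0.64 ± 0.06 and had a log2 fold change of 0.01 ± 0.06 in J2 RNA. BRCA1, with 0.787 and 0.792 in input RNA with H3B-8800, against 1.92 and 2.18 with DMSO, and FANCI, with 1.13 and 0.750 against 3.25 and 3.76, fell by 1.37 ± 0.23 and 1.90 ± 0.29 on the log2 scale (SE, adjusted p = 0.00052 and 0.00026).

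With DMSO, more of these genes had fewer spliced reads in J2 RNA than in input RNA than had more. Of the 38 genes, 4 rose and 16 fell in J2 RNA, and over all tested genes 16.6% rose and 43.8% fell. The 3 lowest were ATM, with 0.396 and 0.193 spliced RPM in J2 RNA, against 1.79 and 2.14 in input RNA, POLA1, with 0.415 and 0.439 against 2.00 and 1.84, and ATR, with 0.358 and 0.561 against 1.38 and 1.98. They differed by log2 fold changes of -2.74 ± 0.42, -2.16 ± 0.41 and -1.86 ± 0.45 (SE, adjusted p = 0.00044, 0.0015 and 0.0058), and ATR was not called without the first DMSO J2 library (adjusted p = 0.052). With the GC and length trend removed the values were -1.41 for ATM, -1.34 for POLA1 and -0.71 for ATR, which was not called (edgeR, adjusted p = 0.010, 0.0089 and 0.14). RRM1, with 0.925 and 1.11 in J2 RNA, against 2.83 and 2.82 in input RNA, followed at -1.47 ± 0.23. The 4 that rose were XRCC6 (log2 fold change 0.56), MCM7 (0.44), RFC2 (0.31) and CDC45 (0.28), and the calls of RFC2 and CDC45 were lost without any 1 of the 4 libraries compared (adjusted p = 0.056 to 0.224). In the ratio of intronic to spliced reads 0 rose (1 at an unadjusted p under 0.05 by limma, 0 in the count model) and 1 fell, and over all tested genes 7.23% rose and 11.5% fell. That 1 was MCM5 (-0.75 ± 0.23, SE, adjusted p = 0.040), whose call was lost without any 1 of the 8 libraries (adjusted p = 0.063 to 0.108).

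With H3B-8800, 8 of the 38 genes rose and 7 fell in J2 RNA relative to input RNA, and over all tested genes 28.4% rose and 27.6% fell. POLD1 rose by a log2 fold change of 0.86 ± 0.09 (SE, adjusted p = 3.8e-05), with 14.6 and 12.9 spliced RPM in J2 RNA, against 7.81 and 7.40 in input RNA. RFC4 had 0.900 and 1.32 in J2 RNA, against 0.511 and 0.417 in input RNA, FANCI 1.94 and 1.75 against 1.13 and 0.750, and FANCA 6.06 and 4.13 against 2.81 and 3.21. These 3 calls were lost without the second drug input library (RFC4, adjusted p = 0.058, and FANCI, 0.137) or without the first drug input or first drug J2 library (FANCA, 0.0835 and 0.0558). PARP1, with 49.7 and 50.3 in J2 RNA, against 93.1 and 102 in input RNA, fell by 0.96 ± 0.06 on the log2 scale (SE, adjusted p = 1.5e-06). MCM2 fell by 0.44 ± 0.11, with 10.4 and 9.06 in J2 RNA, against 13.5 and 13.0 in input RNA. RAD51C, with 1.52 and 1.42 against 2.45 and 2.96, and FEN1, the flap nuclease, with 1.02 and 1.02 against 1.55 and 1.85, fell by 0.88 ± 0.22 and 0.74 ± 0.24 on the log2 scale, and both calls were lost without the second drug input library (adjusted p = 0.056 and 0.114), that of FEN1 also without either DMSO input library (adjusted p = 0.054 and 0.054). In the ratio 0 rose (3 at an unadjusted p under 0.05 by limma, 0 in the count model) and 2 fell, PCNA (-4.15 ± 0.75, SE, adjusted p = 0.0049) and RRM1 (-2.68 ± 0.74, adjusted p = 0.040), and over all tested genes 4.43% rose and 6.33% fell. The call of RRM1 was lost without either drug J2 library, either drug input library or the second DMSO J2 library (adjusted p = 0.051 to 0.193).

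**Figure D5:**
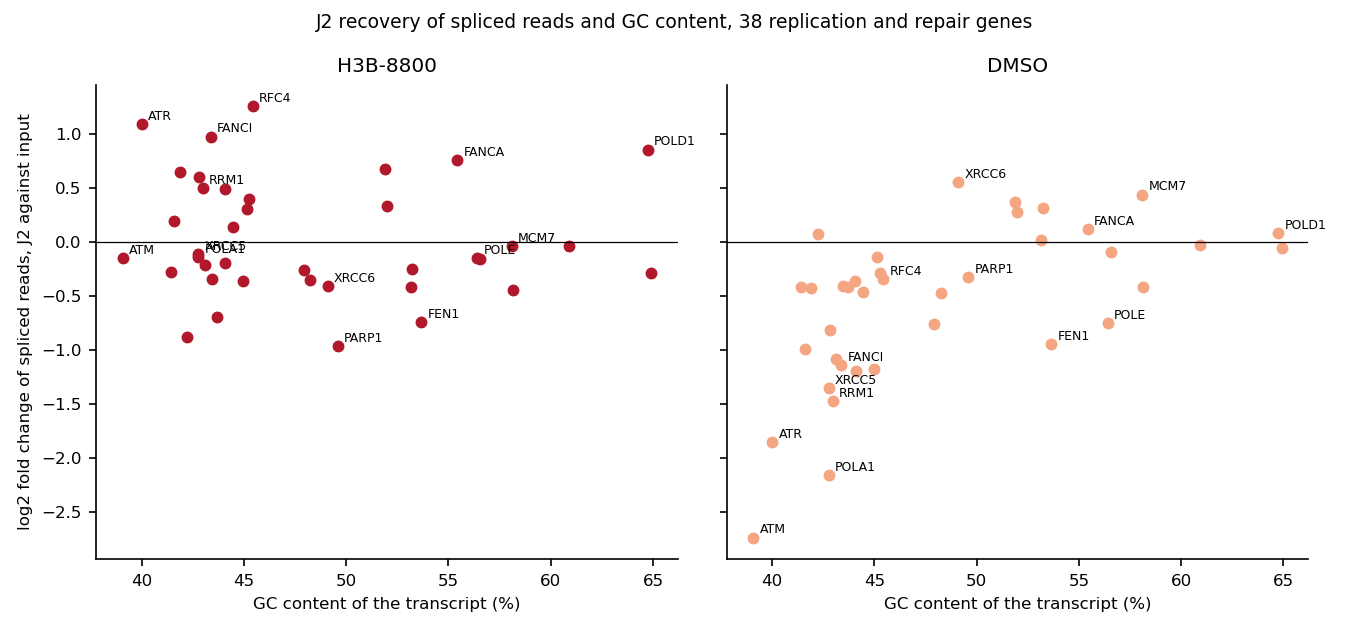
Log2 fold change of spliced reads in J2 RNA against input RNA (y axis) by GC content of the transcript in percent (x axis), for 38 genes with H3B-8800 (left) and DMSO (right). With DMSO the genes of low GC content, among them ATM, ATR, POLA1 and RRM1, lie lowest; with H3B-8800 they spread on both sides of 0.

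The recovery of these genes by J2 moved with GC content and with transcript length in the libraries with DMSO. With H3B-8800 the Spearman correlation of the log2 fold change in J2 against input RNA with GC content over the 38 genes was -0.15, against 0.63 with DMSO. Over 8237 genes it was 0.09 with H3B-8800, against 0.46 with DMSO. The correlation with transcript length over the 38 genes was 0.03 with H3B-8800, against -0.48 with DMSO. Over the 8237 genes it was -0.10 with H3B-8800, against -0.37 with DMSO. The 38 genes had a median GC content of 45.2%, against 50.5% over all tested genes. These correlations run over genes measured in the same libraries and are a description. Position along the gene moved as well. Introns were split by their number along the matched transcript into a first, middle and last part of 219, 238 and 253 listed introns. Summed over the listed genes, the first part had 86.0 ± 0.00080 spliced RPM in J2 RNA with H3B-8800, against 76.1 ± 1.4 with DMSO. The last part had 120 ± 11 with H3B-8800, against 129 ± 4.6 with DMSO (SD, n = 2 each). In input RNA the first part had 122 ± 6.4 with H3B-8800, against 118 ± 6.2 with DMSO, and the last part 121 ± 4.2 with H3B-8800, against 118 ± 0.41 with DMSO. The middle part had 88.3 ± 4.7 in J2 RNA with H3B-8800, against 98.3 ± 0.72 with DMSO. Its input values were 119 ± 9.9 with H3B-8800, against 109 ± 1.8 with DMSO. J2 RNA thus had fewer reads toward the start of these genes than input RNA. Sums of different parts cover unequal numbers of introns and are not compared with each other. The part of GC content, transcript length and position in the results was not tested at single introns.

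The drug effect on spliced reads was then compared between J2 and input RNA. Of the 38 genes, 16 had a higher effect in J2 RNA and 6 a lower one, and over all tested genes 35.8% were higher and 14.2% lower. The 4 with the largest higher effect were ATR (2.95 ± 0.63), ATM (2.59 ± 0.60), FANCI (2.12 ± 0.41) and POLA1 (2.02 ± 0.56), as differences of log2 fold changes with SE (adjusted p = 0.0039, 0.0061, 0.0023 and 0.014). ATM had 0.420 and 0.660 spliced RPM in J2 RNA with H3B-8800, against 0.396 and 0.193 with DMSO, while it fell in input RNA. POLA1 had 0.720 and 1.74 in J2 RNA with H3B-8800, against 0.415 and 0.439 with DMSO, and 1.55 and 1.17 in input RNA with H3B-8800, against 2.00 and 1.84 with DMSO. FANCI had 1.94 and 1.75 in J2 RNA with H3B-8800, against 1.21 and 1.96 with DMSO. The 4 with the largest lower effect were XRCC6 (-0.97 ± 0.14), RAD51C (-0.96 ± 0.31), PARP1 (-0.63 ± 0.08) and RFC2 (-0.57 ± 0.14), with adjusted p = 0.00062, 0.027, 0.00033 and 0.0088. RAD51C had 1.52 and 1.42 in J2 RNA with H3B-8800, against 2.09 and 2.51 with DMSO, and its call was lost without the second DMSO J2, second drug input or first DMSO input library (adjusted p = 0.111, 0.091 and 0.117). POLA1 lost its call without the first DMSO J2 or the second drug input library (adjusted p = 0.050 and 0.057), and its value was 1.25 without the second drug J2 library.

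The GC content of these genes moved with that difference. Over the 38 genes the Spearman correlation of the difference with GC content was -0.58, against -0.25 over all tested genes. With transcript length it was 0.33, against 0.24 over all tested genes. After a trend over GC content and transcript length was removed from each library, an alternative chosen after seeing the data, 5 of the 38 genes had a higher effect in J2 RNA and 8 a lower one, against 16 and 6 before. Over all tested genes 21.7% were higher and 23.8% lower with the trend removed. The differences then were 1.41 for ATM (adjusted p = 0.061), 1.29 for POLA1 (0.051), 0.26 for BRCA1 (0.53) and 0.36 for RFC1 (0.20), none of them called by edgeR. Those of ATR, FANCI, RRM1 and XRCC5 were 1.89, 1.5, 1.34 and 0.57 and were called (adjusted p = 0.014, 0.015, 0.0015 and 0.049), as was that of RAD51C, -1.64 (0.0018). The 4 higher calls that held under every alternative were ATR, FANCI, RRM1 and XRCC5, and the 4 lower ones MCM7, PARP1, RFC2 and XRCC6. XRCC5, which is lower in J2 than input RNA with DMSO, had 11.7 and 20.7 spliced RPM in J2 RNA with H3B-8800, against 6.32 and 5.44 with DMSO, and 16.3 and 18.8 in input RNA with H3B-8800, against 14.5 and 15.6 with DMSO. Its difference of log2 fold changes was 1.24 ± 0.31 and that of RRM1 1.97 ± 0.31 (SE, adjusted p = 0.0088 and 0.00079). For the ratio of intronic to spliced reads 0 of the 38 genes were higher (3 at an unadjusted p under 0.05 by limma, 0 in the count model) and 1, RRM1, was lower, and over all tested genes 4.32% were higher and 4.16% lower.

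A wider list of replication and repair genes, also chosen with earlier results known, held 111 names, of which 99 were listed and 73 tested. In input RNA 13 of these rose and 42 fell in spliced reads with H3B-8800, with a median log2 fold change of -0.66, and over all tested genes 21.9% rose and 48.2% fell with a median of -0.36. Among them POLB, the base excision repair polymerase, rose by 1.86 ± 0.08 and ORC6, a subunit of the origin recognition complex, fell by 3.39 ± 0.19 on the log2 scale (SE). In intronic reads 45 rose and 1 fell (median 1.67), against 51.4% and 4.07% of all tested genes (median 1.26). In the ratio 50 rose and 0 fell (median 2.22), against 59.4% and 2.11% of all tested genes (median 1.69). USP1, the deubiquitinase of FANCD2 and PCNA, had the largest rise of the ratio, by 7.65 ± 0.29 on the log2 scale. In J2 RNA 25 rose and 27 fell in spliced reads (34.5% and 39.5% of all tested genes), 45 rose and 2 fell in intronic reads (59.2% and 3.79%), and 45 rose and 5 fell in the ratio (58.4% and 4.97%). The drug effect on spliced reads was higher in J2 RNA for 31 and lower for 9 (35.8% and 14.2% of all tested genes), with RBBP8, which trims broken ends, at 4.25 ± 0.44. For the ratio USP1 had a lower effect in J2 RNA (-3.85 ± 0.41) and POLE3, an accessory subunit of polymerase epsilon, a higher one (2.16 ± 0.41).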

How the data were processed

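Per the labels, polyadenylated RNA went into stranded libraries. HISAT2 2.0.4 and both hg38 and mm10 are named in the submitters' processing notes; the counting program and strand setting are not given in the sources used here. The deposited files have no header and hold, per intron, a read count taken as intronic, a second count at least as large, whose excess was taken as spliced reads (inferred from the values), and an RPKM, deposited by the authors, which equals the intronic count scaled by length and by a depth in whole reads. The deposited counts are not normalized. Very short introns (18) lack values and 142206 were used. Antisense and overlapping genes cannot be separated; 46 introns of the listed genes overlap an exon of another gene.

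Counts were summed per gene and tested with edgeR 4.0.16 (quasi-likelihood, library size = depth behind the RPKM, no further scaling). The ratio log2((intronic + 1)/(spliced + 1)) was tested with limma 3.58.1 per gene and intron. A variance trend over mean intronic reads was added to limma after a test on simulated data showed low power, which departs from the plain fit first written down. One fit of all 8 libraries with 4 group means gave the comparisons, with Benjamini-Hochberg adjustment over 8248 genes or 45220 introns. P-values rest on 1 estimate of spread per gene or intron, shared by the 4 groups of 2 libraries. The wider spread of J2 RNA with H3B-8800 therefore does not enter on its own. Intervals and limits cover counting error only. Alternatives used DESeq2 1.42.0 and others named at the end. Members and lists were chosen with earlier results of these data known. Genes with per-library values are, per comparison and measure, up to 4 each way with the largest called change that has 1 sign over all library pairs; introns were the 8 with the largest rise and at least 20 intronic plus spliced reads in every drug library. Other genes given by name were chosen after their values were seen. Promoters are from RefSeq (GRCh38.p14).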

Additional observations from a re-analysis of the deposited data

Results flagged for a closer look

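The drug effect differed between J2 and input RNA, by the interaction term in edgeR's quasi-likelihood test (adjusted p under 0.05), for spliced reads of 22 of the 38 genes. Over all tested genes 35.8% were higher and 14.2% lower, and 8 of the 22 calls held under every alternative. The differences of log2 fold changes, J2 RNA minus input RNA, were 2.95 for ATR, 2.59 for ATM, 2.12 for FANCI, 2.02 for POLA1, 1.97 for RRM1, 1.60 for RFC4, 1.42 for PALB2, 1.24 for XRCC5, 1.18 for RFC1, 1.08 for BRCA1, 1.01 for RFC3, 0.85 for CHEK1, 0.81 for CDC6, 0.77 for POLD1, 0.69 for PCNA and 0.60 for POLE. They were -0.97 for XRCC6, -0.96 for RAD51C, -0.63 for PARP1, -0.57 for RFC2, -0.48 for MCM7 and -0.44 for MCM3. For the ratio of intronic to spliced reads the difference was -3.99 for RRM1 (limma). GC content and transcript length move with these differences over the 38 genes. With a trend over GC content and length removed, 5 genes were called higher and 8 lower, among them ATR at 1.89, and ATM at 1.41, BRCA1 at 0.26, RFC1 at 0.36 and CDC6 at 0.38 were not called (adjusted p = 0.061, 0.53, 0.20 and 0.18). Without 1 library, 9 of the 22 spliced calls and the ratio call of RRM1 were lost in at least 1 case.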

How the results depend on the processing

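The counts below are of the 38 genes or 219 introns, and the cause of each change was not tested unless the setting leaves fewer features. Counts over all tested genes also move with the setting. A count given without its share over all features therefore shows nothing particular to the listed genes. Relative scaling centres all genes, which lowers the all-gene intronic median (1.26 in input RNA, 1.75 in J2 RNA) to near 0. With H3B-8800 in input RNA, spliced reads gave 13 that rose by TMM (trimmed mean of M values), 16 by median of ratios, 14 by DESeq2 and 16 with the GC and length trend removed, and 9 and 8 that fell by median of ratios and DESeq2. Over all tested genes 37.3% rose and 34.4% fell by median of ratios, and 38.5% rose with that trend removed. Intronic reads gave 8, 8 and 6 that rose and 2, 2 and 2 that fell by TMM, median of ratios and DESeq2, and 6 that rose with a filter on the measure itself, which left 6 genes. By the same 3 settings, 1986, 1921 and 1576 of all 8248 tested genes rose and 1593, 1652 and 1351 fell. With the filter 3127 of 3992 rose. The ratio gave 6 that rose with that filter and 1 that fell with a pseudocount of 5. In J2 RNA, spliced reads gave 19 that rose with the GC and length trend removed. Intronic reads gave 11, 10 and 8 that rose and 2, 3 and 2 that fell by TMM, median of ratios and DESeq2, and 6 that rose with the filter. Over all 8248 tested genes 2392, 2133 and 1768 rose and 1589, 1800 and 1547 fell, and with the filter 3342 of 3992 rose. The ratio gave 6 that rose with the filter, 3 that fell with a pseudocount of 5 and 1 without the variance trend.

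For J2 against input RNA with DMSO, spliced reads gave 9 that rose by median of ratios and 9 by DESeq2, and 10 that fell by DESeq2 and 9 with the GC and length trend removed. The ratio gave 1 that rose with a pseudocount of 5, and 2 and 3 that fell with 0.5 and 5, against 0 without the variance trend, in the count model, without a filter and with the replicate block. With H3B-8800 the ratio gave 1, 4, 1, 1 and 0 that fell with pseudocounts of 0.5 and 5, without the variance trend, without a filter and with the filter on the measure, and 1 with the replicate block. For the difference in drug effect, spliced reads gave 9, 8 and 5 higher by median of ratios, DESeq2 and with the GC and length trend removed, and the ratio gave 3 lower with a pseudocount of 5 and 0 with 0.5, without the variance trend, in the count model, without a filter and with it. Introns that rose in input RNA numbered 12 in the count model and 6 at a mean of 100 reads, and those that fell 8, 22, 7, 0 and 6 with pseudocounts of 0.5 and 5, without the variance trend, in the count model and at 100 reads. In J2 RNA 17 and 10 rose, and 1 and 0 fell, in the count model and at 100 reads. Deviations of same-numbered libraries from their group means correlated at -0.074 to 0.119. With 2 libraries per group these values cannot decide whether equal numbers mark paired samples, and the main fit treated the libraries as unpaired. The replicate block kept 191 calls and lost 6.

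Leaving out each library, input RNA gave 7 to 9 rises and 13 to 16 falls in spliced reads, 14 to 20 rises in intronic reads, 16 to 24 in the ratio, and 32 (without the second DMSO input library) to 61 rises and 6 to 15 falls of introns. J2 RNA gave 10 to 15 and 8 to 10, 17 to 21, 15 to 20 rises and 0 to 1 falls, and 42 (without either DMSO J2 library) to 71 and 8 to 16. J2 against input RNA with DMSO gave 2 to 5 rises and 13 to 18 falls in spliced reads and 0 to 1 each way in the ratio. With H3B-8800 it gave 4 to 8 rises, 3 (without the second drug input library) to 13 falls (without the second drug J2 library), and 1 to 2 falls in the ratio. The difference in drug effect gave 10 (without the second DMSO J2 or input library) to 16 higher and 4 to 6 lower, and 0 to 1 each way in the ratio.

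Changes of sign were LIG1 0.22 and MCM7 0.17 (spliced, input RNA, GC and length trend removed), PARP1 0.035 and 0.035 (spliced, J2 against input RNA with DMSO, median of ratios and DESeq2), and RAD51C in intronic reads of input RNA (-0.019 by TMM, -0.063 and -0.064 by the same tools). In intronic reads of J2 RNA they were, by those tools, CDT1 -0.15 and -0.16, LIG1 -0.070 and -0.075, RAD51C -0.14 and -0.14, and RFC1 -0.15 and -0.17. Single-gene calls were unchanged 2545 times, lost 371 times and changed sign 15 times over all settings, and 1 of the 15, MCM7, was still called (edgeR, adjusted p = 0.040). Intronic reads of many genes number under 20 in a library, which limits the intronic results.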
